A study of Mus musculus with 6 samples.

Results

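The genes described here are 32 lymphocyte genes among the 17556 genes listed for infarcted mouse left ventricles. They were chosen by name, from what is known of T cells, natural killer (NK) cells and B cells. Earlier results of these data were known at that time. There are 17 T cell genes, 7 genes of NK cells and cytotoxic granules, 7 B cell genes, and *Ltb*, which T and B cells share. Bulk RNAseq was performed on left ventricles of 3 Cre-positive mice and 3 Cre-negative siblings, collected 4 days after permanent ligation of the left anterior descending artery, when the mice were 6 to 10 weeks old. All 6 mice carried floxed *Yap* and *Wwtr1* alleles and were fed tamoxifen citrate diet from surgery on. Cre-positive mice carried tamoxifen-inducible MerCreMer under the endogenous periostin (*Postn*) promoter, which is active in myofibroblasts, for the removal of both *Yap* alleles and 1 *Wwtr1* allele, while Cre-negative siblings had wildtype *Postn*. The comparison asks whether lymphocyte transcripts in the injured ventricle differ with this depletion.

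Libraries held between 13177888 and 14827579 estimated counts. RNA of the whole ventricle showed no loss of either target. The level of *Yap1* was 44.2 to 46.3 TPM (transcripts per 1000000, a level corrected for transcript length) without Cre and 48.9 to 50.7 TPM with it, and that of *Wwtr1* was 39.3 to 43.6 TPM and 43.9 to 47.4 TPM. In TPM both targets were thus higher with Cre, while in normalized counts the groups overlapped, with log2 fold changes of 0.03 and 0.05 (adjusted p = 0.935 and 0.876, edgeR). *Postn*, the driver locus, had 452, 1015 and 1112 TPM without Cre and 526, 636 and 586 TPM with it. The *Postn* groups overlapped, with a log2 fold change of −0.66 (standard error 0.27, unadjusted p = 0.0438, adjusted p = 0.714, edgeR). These genes do not check the depletion, and the grouping rests on the sample titles. Cardiomyocyte markers (*Myh6*, *Myl2*, *Tnnt2*, *Tnni3* and *Actc1*) summed to 44870 to 53630 TPM without Cre and 40470 to 43610 TPM with it. Cre-negative ventricle 1 stood apart. Its counts gave a chi-square per gene of 44.2 to 68.3 against the other 5 libraries, where sampling noise alone gives about 1 and those 5 gave 8.07 to 17.03 among themselves. Its 5 neutrophil markers summed to 413 TPM, against 47.4 to 155 elsewhere (*S100a8*, *S100a9* and *Retnlg* carry this sum, *Ly6g* was at 0 counts in 4 ventricles, and *Csf3r* was lowest in Cre-negative 1, at 12.3 TPM against 17.4 to 25.95), and its 5 macrophage markers to 948 TPM, against 1273 to 1543. Values without it are given with the other left-out ventricles at the end of the comparison.

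T cells recognise peptides through a receptor whose signal is passed on by the CD3 chains, and the coreceptors CD4 and CD8 separate helper from cytotoxic cells. NK cells kill without such a receptor, using granzymes and perforin that cytotoxic T cells also carry. B cells bind antigen through surface immunoglobulin, which signals through CD79A and CD79B. After myocardial infarction, neutrophils and macrophages enter the wound first and in larger numbers, while lymphocytes are a minority that shapes later repair.

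Lymphocyte transcripts were rare in every ventricle. The 32 genes together made up between 0.00313% and 0.0131% of all TPM. Mean levels over the 6 ventricles ran from 0.0733 TPM for *Foxp3* to 13.1 TPM for *Cd79a*, with a median of 0.921 TPM. B cell genes led, with a median of 4.21 TPM, against 0.817 TPM for T cell genes and 0.713 TPM for NK and cytotoxic genes. In bulk tissue, fewer cells of a type and less RNA per cell cannot be told apart. These levels are per transcript length, so they can be compared between genes, but they give no ratio of cells. Where 3 values of a group are given, they follow replicates 1, 2 and 3. A count of 0 allows up to 3 counts, or 0.202 to 0.228 per 1000000 counts, and such limits cover counting error only.

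**Figure D1:**
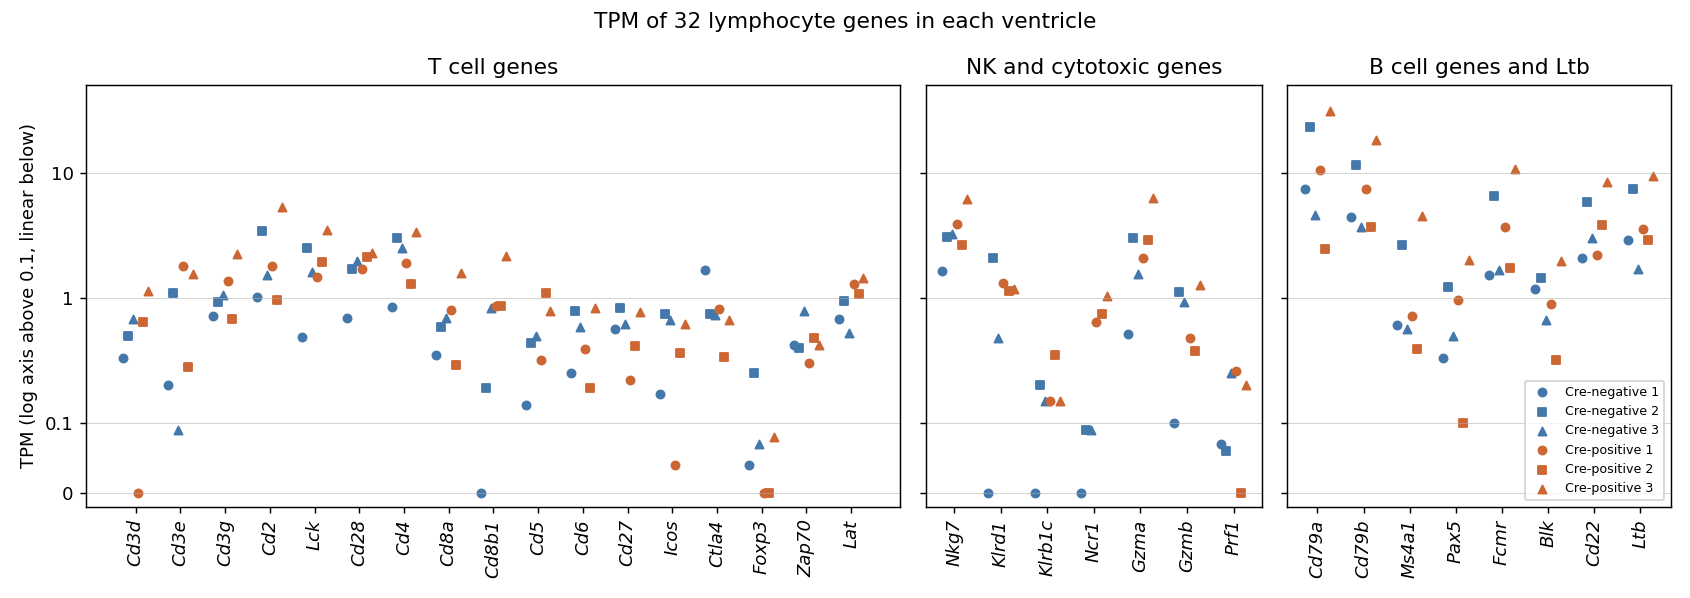
TPM of each of the 32 genes (x axis) in each ventricle (1 point each) on an axis that is logarithmic above 0.1 TPM and linear below. Blue points are Cre-negative and orange points Cre-positive ventricles, and the triangle of Cre-positive ventricle 3 is the highest point for all 7 B cell genes.

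B cell genes varied more between mice of the same genotype than between genotypes, and they did so together. *Cd79a*, the signalling chain of the B cell receptor, had 7.41, 23.1 and 4.57 TPM in Cre-negative ventricles and 10.4, 2.46 and 30.9 TPM in Cre-positive ventricles. The highest and the lowest value were therefore both Cre-positive, 12.6-fold apart, and rested on 294 and 24 counts. Its partner chain *Cd79b* had 4.43, 11.5 and 3.66 TPM without Cre and 7.42, 3.66 and 18.1 TPM with it. *Ms4a1*, which encodes the surface protein CD20, had 0.61, 2.64 and 0.56 TPM without Cre and 0.71, 0.39 and 4.49 TPM with it. The same 2 ventricles, Cre-negative 2 and Cre-positive 3, were high for each of these genes, and the groups overlapped throughout.

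*Pax5*, the transcription factor that holds B cell identity, had 0.33, 1.21 and 0.5 TPM in Cre-negative ventricles and 0.97, 0.1 and 1.99 TPM in Cre-positive ventricles. *Fcmr*, a receptor for IgM, ranged from 1.52 to 10.8 TPM, *Cd22*, an inhibitory coreceptor of B cells, from 2.09 to 8.34 TPM, and *Blk*, a Src family kinase, from 0.32 to 1.96 TPM. For 7 of 7 B cell genes the highest TPM was in Cre-positive ventricle 3 and the next highest in Cre-negative ventricle 2. Among all 13817 genes tested these 2 ventricles were the highest pair for 6.03%, and Cre-positive ventricle 3 was the highest for 18.9%. The order of the 7 genes is a single observation on these 6 mice, as genes of the same cells are not independent.

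The promoter of *Cd79a* is shown because it is the highest of the 32 genes, those of *Cd3d* and *Ncr1* because they stand for the T cell and NK genes described next. Each is the 250 bases before the start that RefSeq's promoter entry uses on GRCm38.p6 (for *Cd3d* a little inside the listed gene), written 5′ to 3′ on the plus strand: chr7:24897247-24897496 for *Cd79a*, chr9:44981536-44981785 for *Cd3d* and chr7:4337465-4337714 for *Ncr1*. Capitals mark matches, on either strand, to 4 motifs of lymphocyte factors: the octamer ATGCAAAT, the EBF core CCCNNGGG, the ETS core AGGAAGT and the RUNX core TGTGGT.
Cd79a: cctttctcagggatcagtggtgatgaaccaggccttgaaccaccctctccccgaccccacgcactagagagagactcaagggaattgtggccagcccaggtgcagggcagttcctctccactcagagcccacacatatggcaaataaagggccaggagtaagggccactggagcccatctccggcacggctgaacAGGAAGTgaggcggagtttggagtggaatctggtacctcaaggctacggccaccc
Cd3d: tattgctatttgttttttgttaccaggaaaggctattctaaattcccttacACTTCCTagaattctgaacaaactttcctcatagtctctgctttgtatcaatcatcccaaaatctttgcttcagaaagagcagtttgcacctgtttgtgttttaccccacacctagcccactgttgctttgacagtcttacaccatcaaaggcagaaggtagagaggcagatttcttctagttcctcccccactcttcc
Ncr1: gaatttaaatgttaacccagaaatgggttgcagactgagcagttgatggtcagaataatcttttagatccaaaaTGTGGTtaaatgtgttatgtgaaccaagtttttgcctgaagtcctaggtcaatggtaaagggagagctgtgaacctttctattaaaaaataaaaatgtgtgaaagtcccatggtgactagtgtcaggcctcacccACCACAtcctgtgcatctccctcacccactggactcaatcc

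*Cd79a* had the ETS core starting 55 bases before the start, *Cd3d* had it on the minus strand 199 bases before, and *Ncr1* had the RUNX core on both strands, 176 and 41 bases before. The matches did not overlap one another. Of the 22 lymphocyte genes with a promoter in the RefSeq table, 6 held the ETS core, 6 the RUNX core, 3 the EBF core and 0 the octamer, where 7.8%, 14.2%, 11.7% and 1.61% of 27025 genes did. A match is a match of letters and not a measured binding site.

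Other B lineage genes followed the same ventricles. In a wider list of 19 B cell genes, 12 had Cre-negative 2 and Cre-positive 3 as their highest pair. *Spib*, an ETS family factor of B cells, had 1.43, 3.74 and 0.68 TPM without Cre and 1.85, 0.89 and 6.12 TPM with it. Some wider-list genes that myeloid or stromal cells also use, such as *Blnk*, *Btk* and *Ebf1*, did not show these large swings and ranged 8.82 to 22.2 TPM, 4.46 to 9.19 TPM and 9.33 to 15.3 TPM. *Jchain*, which joins secreted IgM and IgA and marks plasma cells, had 9.46, 43.9 and 1.41 TPM without Cre and 20.7, 2.39 and 30.2 TPM with it. For *Mzb1*, a chaperone of antibody-secreting cells, the values were 2.72, 9.71 and 1.17 TPM and 7.71, 1.17 and 7.93 TPM. Both were thus lowest in Cre-negative 3 and Cre-positive 2, where the summed B cell level was lowest as well. *Sdc1*, a plasma cell marker that epithelial and stromal cells also carry, did not follow them. It had 18.8, 31.8 and 30.9 TPM without Cre and 37.1, 39.4 and 35 TPM with it, and was highest in Cre-positive 2, without overlap between groups (log2 fold change 0.36, standard error 0.16, adjusted p = 0.714, edgeR).

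Fat markers moved with part of this order. *Adipoq*, the adipocyte hormone adiponectin, had 39.9, 33.4 and 5.06 TPM in Cre-negative ventricles and 34.1, 3.77 and 25.3 TPM in Cre-positive ventricles. *Plin1*, which coats lipid droplets, had 6.64, 6.52 and 1.68 TPM and 6.32, 1.0 and 8.14 TPM. Both fat markers were low in the 2 ventricles with the lowest summed B cell level, and neither was at 0 in any ventricle. Cre-negative 1 departed from this, as its fat markers summed to 46.6 TPM, the highest of all, with a summed B cell level of 17.6 TPM. The summed level of the fat markers was 6.74 to 46.6 TPM without Cre and 4.77 to 40.4 TPM with it. Haemoglobin genes, a mark of blood left in the tissue, summed to 15630 to 27290 TPM without Cre and 14320 to 25470 TPM with it, and were lowest in Cre-positive 2 and Cre-negative 2. The part of fat or blood in the B cell level was not tested.

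**Figure D2:**
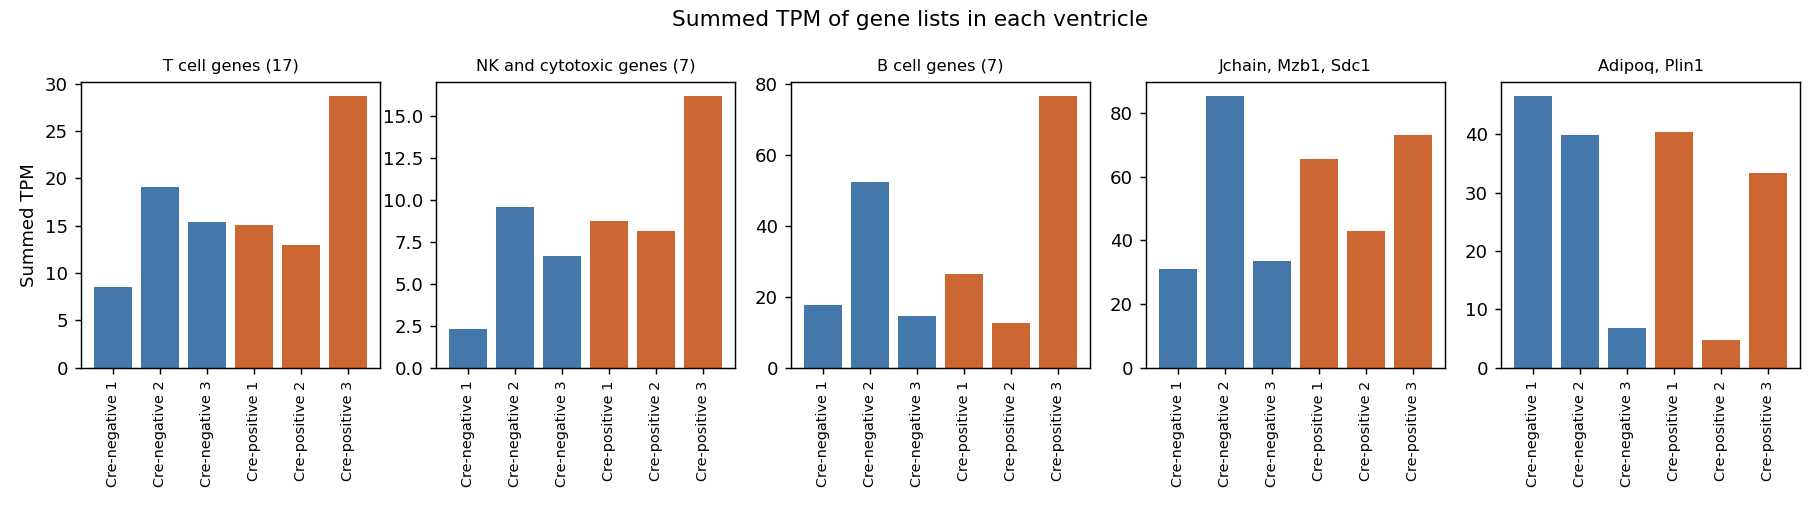
Summed TPM (y axis, from 0, a scale of its own in each panel) of the T cell, NK and cytotoxic and B cell genes, of 3 plasma cell markers and of 2 fat markers in each ventricle. Blue bars are Cre-negative and orange bars Cre-positive, and the B cell bars reach 52.3 in Cre-negative 2 and 76.5 in Cre-positive 3 while all others are at or under 26.3.

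Summed over the 7 B cell genes, the level was 17.6, 52.3 and 14.6 TPM in Cre-negative ventricles and 26.3, 12.5 and 76.5 TPM in Cre-positive ventricles. These sums rest on 218, 682 and 219 counts and on 328, 198 and 970 counts. The exact 95% Poisson intervals of the largest, 910 to 1033 counts, and of the smallest, 171 to 228 counts, cover counting error only. The group means were 28.1 ± 20.9 TPM (SD, n = 3 mice) without Cre and 38.4 ± 33.7 TPM (SD, n = 3 mice) with it, a ratio of 1.37. *Cd79a* and *Cd79b* made up 49.1% to 67.8% of the sum in each ventricle.

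*Ltb*, the membrane-bound lymphotoxin chain that organises lymphoid tissue, followed the B cell genes. It had 2.91, 7.38 and 1.71 TPM in Cre-negative ventricles and 3.52, 2.9 and 9.44 TPM in Cre-positive ventricles. The groups overlapped, with a log2 fold change of 0.28 and a standard error of 0.62 in edgeR's quasi-likelihood test (adjusted p = 0.898).

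T cell genes were low, and their sum varied less between ventricles than that of the B cell genes. Single genes did not differ in this way. T cell genes without a value of 0 ranged from 2.63-fold (*Zap70*) to 19.8-fold (*Cd3e*), and B cell genes from 3.99-fold (*Cd22*) to 19.9-fold (*Pax5*). The summed level of the T cell genes was 8.54, 19.1 and 15.4 TPM in Cre-negative ventricles and 15.1, 12.98 and 28.7 TPM in Cre-positive ventricles. The highest ventricle was 3.36-fold above the lowest, against 6.14-fold for B cell genes. Cre-negative 1 was lowest and Cre-positive 3 highest, and the other 4 lay between 12.98 and 19.1 TPM. Means were 14.3 ± 5.34 TPM (SD, n = 3 mice) without Cre and 18.9 ± 8.55 TPM (SD, n = 3 mice) with it, a ratio of 1.32. Of the 17 genes, 10 were highest in Cre-positive 3 and 6 had the same highest pair of ventricles as the B cell genes.

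The CD3 chains, which carry the signal of the T cell receptor, were near the limit of detection. *Cd3e* had 2, 12 and 1 counts in Cre-negative ventricles and 19, 3 and 17 counts in Cre-positive ventricles. *Cd3d* had 2, 5 and 5 counts without Cre and 0, 6 and 10 counts with it. For *Cd3g* there were 5, 7 and 8 counts without Cre and 10, 5 and 16 with it. The 3 chains did not share an order, since Cre-positive 1 had the most *Cd3e* and no *Cd3d* count. Their genes lie side by side on chromosome 9, between 44969572 and 45009663 on GRCm38.p6.

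The coreceptor *Cd4*, which some dendritic cells also make, had 0.84, 2.99 and 2.5 TPM in Cre-negative ventricles and 1.89, 1.28 and 3.37 TPM in Cre-positive ventricles. *Cd8a*, also made by a class of dendritic cells, had 0.35, 0.58 and 0.69 TPM without Cre and 0.8, 0.29 and 1.59 TPM with it. *Cd8b1*, its more T cell specific partner, had 0, 2 and 9 counts without Cre and 9, 9 and 22 counts with it. On the TPM scale the *Cd8b1* groups did not overlap, 0 to 0.83 TPM against 0.86 to 2.16 TPM, while in normalized counts they did. Dendritic cell markers (*Xcr1*, *Clec9a*, *Flt3* and *Siglech*) summed to 2.33 to 4.34 TPM without Cre and 3.13 to 4.96 TPM with it, with 0 of 4 at 0 counts in any ventricle, and their part was not tested.

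*Foxp3*, *Ctla4* and *Icos* had lower mean levels with Cre, within their spread. Other genes of regulatory and activated T cells in the wider list differed in either direction, with overlapping groups. Fitted log2 fold changes were −0.15 for *Tnfrsf18*, −0.083 for *Lag3*, −0.069 for *Ikzf2* and 0.0072 for *Il2ra*, while *Tigit*, *Pdcd1* and *Tnfrsf4*, with too few counts to be tested, had means of 0.0467, 0.297 and 1.1 TPM without Cre and 0.637, 0.437 and 1.37 TPM with it. *Foxp3*, the factor of regulatory T cells, had 1.04, 7.37 and 2.08 estimated counts in Cre-negative ventricles and 0, 0 and 2.19 in Cre-positive ventricles. *Ctla4*, an inhibitory receptor of activated and regulatory T cells, had 23, 11 and 11 counts without Cre and 12, 5 and 9 with it. *Icos*, an inducible costimulator, had 4, 20 and 17 counts without Cre and 1, 9 and 17 with it. For each of the 3 genes the groups overlapped, and Cre-negative 1 alone set the top of the *Ctla4* range.

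Among the signalling genes, *Lat*, the adaptor that couples the T cell receptor to downstream enzymes, was the only T cell gene whose groups did not overlap in normalized counts. It had 6, 9 and 5 counts in Cre-negative ventricles and 12, 10 and 13 in Cre-positive ventricles, or 6.91 ± 1.99 and 11.3 ± 1.82 normalized counts (SD, n = 3 mice). The ratio of summed counts per library total was 1.7 (exact 95% interval 0.955 to 3.11). This interval spans equal levels, but it covers counting error only and leaves out the spread between mice. Mast cells and platelets also use *Lat*. The 3 mast cell markers summed to 7.16 to 9.78 TPM without Cre and 10.4 to 12.2 TPM with it, with 0 of 3 at 0 counts. *Kit*, which other cells also carry, had 2.78 to 5.12 TPM and 5.77 to 8.83 TPM, while those of *Cpa3* and *Mcpt4*, the mast cell proteases, overlapped. The 3 platelet markers summed to 217 to 326 TPM and 228 to 250 TPM, with 0 of 3 at 0 counts. The part of these cells was not tested. The kinases differed less, *Lck* ranging from 0.49 to 2.52 TPM without Cre and 1.48 to 3.46 TPM with it, and *Zap70* from 0.4 to 0.79 TPM and 0.3 to 0.48 TPM. The remaining T cell genes, the adhesion and costimulatory receptors *Cd2*, *Cd28*, *Cd5*, *Cd6* and *Cd27*, ranged from 0.14 to 5.3 TPM over all ventricles, and their groups overlapped.

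NK and cytotoxic genes had the fewest counts. Summed over 7 genes there were 14, 70 and 50 counts in Cre-negative ventricles and 62, 59 and 109 counts in Cre-positive ventricles. As TPM the sums were 2.33, 9.6 and 6.69 without Cre and 8.78, 8.14 and 16.2 with it. Means were 6.21 ± 3.66 TPM (SD, n = 3 mice) and 11.1 ± 4.49 TPM (SD, n = 3 mice), a ratio of 1.78 that fell to 1.36 without Cre-negative 1. That ventricle was the lowest for 6 of the 7 genes and at 0 counts for 3 of them. Being lowest there is common in these data, as 51.4% of all genes tested had their lowest TPM in it.

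*Ncr1*, which encodes the activating receptor NKp46 and is close to exclusive to NK cells and related innate cells, had the lowest unadjusted p of the 32 genes when no filter was applied. It had 0, 1 and 1 counts in Cre-negative ventricles and 7, 8 and 11 counts in Cre-positive ventricles. The groups did not overlap. The ratio of summed counts per library total, 26 against 2, was 12.6 (exact 95% interval 3.16 to 110, counting error only). Permuted exactly over the 6 mice (two-sided), p was 0.1, and 3 against 3 can give no smaller value. With so few counts *Ncr1* did not pass the filter on low counts. In the fit with no filter the difference was 3.39 on the log2 scale, with a standard error of 0.80 (unadjusted p = 0.00236, adjusted p = 0.774, edgeR). All 3 Cre-positive ventricles lay above every Cre-negative one, but the adjusted threshold was not passed. It was the 1 of 32 genes with an unadjusted p under 0.05 in that fit, where 5.41% of all genes had one.

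The other NK genes did not share this pattern. *Klrb1c*, which encodes the NK1.1 antigen, had 0, 4 and 3 counts in Cre-negative ventricles and 3, 7 and 3 in Cre-positive ventricles. *Klrd1*, which encodes the receptor chain CD94, had 0, 15 and 3 counts without Cre and 8, 7 and 7 with it. *Nkg7*, a granule membrane protein, was the highest gene of the class, with 1.65, 3.08 and 3.23 TPM without Cre and 3.85, 2.63 and 6.12 TPM with it. Groups overlapped for all 3. *Klrb1c* and *Klrd1* belong to a family of similar neighbouring genes on chromosome 6, between which reads may have been divided.

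Of the granule genes, *Gzma*, which encodes granzyme A, had 0.51, 2.98 and 1.56 TPM in Cre-negative ventricles and 2.09, 2.9 and 6.27 TPM in Cre-positive ventricles. *Gzmb*, which encodes granzyme B, had 0.1, 1.12 and 0.93 TPM without Cre and 0.48, 0.38 and 1.27 TPM with it. *Prf1*, the pore-forming perforin, had 1, 1 and 4 counts and 4, 0 and 3 counts. The granzymes thus peaked in the same ventricle, Cre-positive 3, but with overlapping groups.

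In the test over all genes, no difference between genotypes was detected for the lymphocyte genes that were tested. Of the 32 genes, 19 passed the filter on low counts: 9 T cell genes, 2 NK and cytotoxic genes, 7 B cell genes and *Ltb*. With edgeR's quasi-likelihood test 0 of the 19 had an adjusted p under 0.05 (lowest adjusted p = 0.714) and 0 had an unadjusted p under 0.05 (lowest unadjusted p = 0.136), against 0.00724% and 5.83% of all 13817 genes tested. DESeq2's Wald test gave 0 at both thresholds too. The largest log2 fold changes were 1.28 for *Cd3e* (standard error 0.91, adjusted p = 0.722, edgeR), 1.03 for *Gzma* (standard error 0.62, adjusted p = 0.714, edgeR) and 0.84 for *Pax5* (standard error 0.79, adjusted p = 0.764, edgeR). *Ctla4* had the lowest, −0.91 (standard error 0.55, adjusted p = 0.714, edgeR). With a ventricle left out these became 0.78 (without Cre-negative 3) to 2.89 (without Cre-negative 2) for *Cd3e*, 0.45 (without Cre-positive 3) to 1.69 (without Cre-negative 2) for *Gzma*, −0.18 (without Cre-positive 3) to 1.45 (without Cre-negative 2) for *Pax5*, and −1.24 (without Cre-positive 1) to −0.35 (without Cre-negative 1) for *Ctla4*. For *Cd79a* the normalized counts were 117 ± 96.3 (SD, n = 3 mice) without Cre and 137 ± 136 with it, and for *Cd22* they were 104 ± 53.6 and 125 ± 83.5. Standard errors of the 19 genes ran from 0.34 to 0.95 on the log2 scale.

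**Figure D3:**
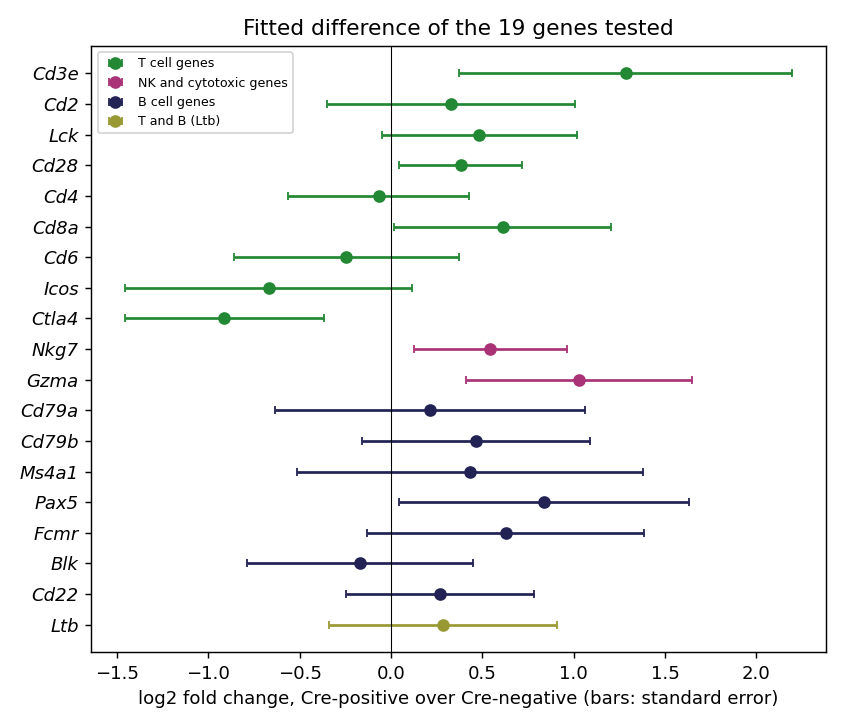
Log2 fold change of Cre-positive over Cre-negative ventricles (x axis) for the 19 genes tested, with bars of 1 standard error from edgeR. All values lie between −0.91 and 1.28, and none has an adjusted p under 0.05.

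Most fitted differences lay above 0 without passing the test. Of the 19 genes tested 14 had a log2 fold change above 0, against 51.2% of all genes tested, but without Cre-positive 3 only 5 of the 19 did (13 to 17 without any other ventricle). With no filter, so that all 32 genes had a value, 23 were above 0, against 51.4% of all 17525 genes of that fit, with a median log2 fold change of 0.36 against 0.0084. By class these were 10 of 17 T cell genes (median 0.33), 6 of 7 NK and cytotoxic genes (median 0.55) and 6 of 7 B cell genes (median 0.44). Genes of the same cells are measured in the same 6 mice, so such counts are not independent. Groups did not overlap for 2 of the 32 genes, *Ncr1* and *Lat*, both higher with Cre. Over all genes with a count, 6.66% were separated in that direction, 6.08% in the other and 12.7% in either, and over the genes tested 7.51%, 6.89% and 14.4%.

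Single ventricles changed the size of these differences, and for T cell and B cell genes also the direction. For B cell genes the ratio of mean summed TPM, 1.37 with all 6 ventricles, was 0.689 without Cre-positive 3 and 2.39 without Cre-negative 2, the 2 ventricles with the most B cell transcripts. For T cell genes the ratio, 1.32 with all 6, was 0.977 without Cre-positive 3 and 1.58 without Cre-negative 2. For NK and cytotoxic genes, 1.78 with all 6, it was 1.36 without Cre-negative 1 or without Cre-positive 3, and at 2.45 without Cre-negative 2. *Cd79a* had a log2 fold change of −0.94 without Cre-positive 3, *Ms4a1* −1.30 and *Cd2* −0.61, where all 3 were positive with every ventricle included. Without Cre-negative 1, the ventricle that stood apart, the ratio was 1.1 for T cell genes and 1.15 for B cell genes, and the median log2 fold change, over the same genes as with all 6, was 0.053 in place of 0.33 for 9 T cell genes, 0.49 in place of 0.79 for 2 NK and cytotoxic genes and 0.14 in place of 0.43 for 7 B cell genes. *Lck* then had a log2 fold change of 0.094 in place of 0.48 and *Cd28* 0.080 in place of 0.38. Without Cre-negative 2, 2 of 22 lymphocyte genes tested had an unadjusted p under 0.05, against 6.46% of all genes in that fit. They were *Cd3e* and *Gzma* (unadjusted p = 0.0329 and unadjusted p = 0.0469, edgeR), and neither had an adjusted p under 0.05.

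**Figure D4:**
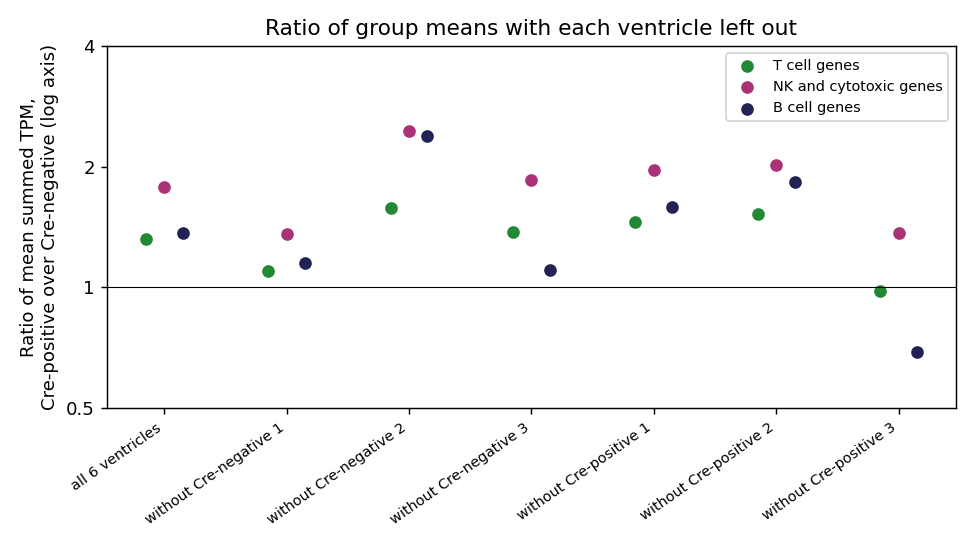
Ratio of the mean summed TPM of Cre-positive over Cre-negative ventricles (y axis, logarithmic) with all 6 ventricles and with each left out in turn. The B cell ratio lies between 0.689 and 2.39, and the T cell and B cell ratios fall below 1 only without Cre-positive 3.

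A wider list of 69 further lymphocyte genes held no gene past the adjusted threshold either. It was chosen by cell type and holds 30 T cell, 20 NK and 19 B cell genes, of which 35 were tested. None had an adjusted p under 0.05 (lowest adjusted p = 0.714, edgeR), and 1 had an unadjusted p under 0.05, against 5.83% of all genes. That gene was *Cd244a*, which encodes the receptor 2B4 of NK cells and some myeloid cells. It had 1.34, 1.73 and 1.07 TPM in Cre-negative ventricles and 2.27, 2.9 and 2.16 TPM in Cre-positive ventricles, without overlap. Its log2 fold change was 0.64 with a standard error of 0.25 (unadjusted p = 0.037, adjusted p = 0.714, edgeR), and each Cre-positive ventricle lay above each Cre-negative one. *Klra9*, an NK receptor of a family of near-identical copies, was separated the other way in normalized counts but had too few counts to be tested (6, 8.27 and 21 counts without Cre and 6.97, 5.41 and 3 with it). The count of genes with an unadjusted p under 0.05 ranged from 0 to 3 when a ventricle was left out: 3 of 42 tested without Cre-negative 1 (6.59% of all genes in that fit), 2 of 39 without Cre-negative 2 (6.46%), 2 of 36 without Cre-positive 3 (3.68%), 1 of 43 without Cre-positive 2 (2.68%), and 0 without Cre-negative 3 (9.61%) or Cre-positive 1 (3.98%). *Eomes*, a T-box factor of NK and cytotoxic T cells, had 2, 5 and 5 counts without Cre and 11, 5 and 18 with it, with overlapping groups.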

How the data were processed

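Left ventricles of 3 Cre-positive and 3 Cre-negative mice were profiled by bulk RNAseq. RNA was extracted with TRIzol. The submitters' processing notes name Bowtie2 2.2.5, RSEM 1.2.12 and the build GRCm38.p6. The authors deposited estimated counts, not normalized, of which 11.46% are not whole numbers, TPM values that sum to 1000000 in each library, and FPKM values, which were not used. Their own comparison, with log2 fold changes, p-values and q-values, was not used. Totals were 13177888, 14507293 and 14514799 estimated counts without Cre and 14410878, 14827579 and 14202093 with it.

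Estimated counts were rounded to whole numbers, and edgeR 4.0.16 was run in R 4.3.3 (filterByExpr with a minimum count of 10 and total of 15, TMM scaling, quasi-likelihood test without covariate, Benjamini-Hochberg adjustment over 13817 genes, threshold 0.05). The standard error is the log2 fold change over the root of its F value. TMM-normalized counts refer to the mean library of 14273417. The fit was tested on simulated data. Sums of TPM over genes received no test. Permutation tests used scipy 1.17.1 in Python 3.11.15, and figures matplotlib 3.10.9. Promoters and gene positions are RefSeq's on GRCm38.p6, matched by symbol or gene number.

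Alternatives were DESeq2's size factors, DESeq2 1.42.0, no filter, a replicate block and leaving out each ventricle. By rule, every ventricle's value is given for the CD3 chains, *Cd4*, *Cd8a*, *Cd8b1*, *Foxp3*, *Nkg7*, *Ncr1*, *Klrb1c*, *Gzma*, *Gzmb*, *Prf1*, *Cd79a*, *Cd79b*, *Ms4a1*, *Pax5* and *Ltb*, for any of the 32 with an unadjusted p under 0.05 or groups that do not overlap, for the largest change of each class, and for wider-list genes with an unadjusted p under 0.05. Other genes given by ventricle, mean or fold change (*Ctla4*, *Icos*, *Klrd1*, *Spib*, *Klra9*, *Eomes*, *Tigit*, *Pdcd1*, *Il2ra*, *Lag3*, *Ikzf2*, *Tnfrsf4*, *Tnfrsf18* and markers of other cells) were picked after their values were seen. The genes and lists were chosen with earlier results of these data known. Of the wider list, 3 immunoglobulin genes were not analysed here. Litters, extraction days and strand of counting are not given in the sources used here, so reads of overlapping genes (*Gzma* and *Cdc20b*, *Foxp3* and *Ccdc22*) may be shared, and p-values measure the spread between these samples.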

Additional observations from a re-analysis of the deposited data

How the results depend on the processing

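No lymphocyte gene had an adjusted p under 0.05 under any alternative run (lowest 0.521 among the 19 genes tested), and 0 of 19 changed sign with DESeq2's size factors, DESeq2's Wald test, no filter or a replicate block. Over all genes, the number with an adjusted p under 0.05 was 1, 5 with DESeq2's Wald test, 0 with the replicate block and 0 to 2 with a ventricle left out; the cause was not tested. Of the 19 genes tested 0 had an unadjusted p under 0.05, against 1 of 32 with no filter (*Ncr1*, which the filter leaves out; 5.41% of all genes in that fit) and 0 to 2 with a ventricle left out. The groups of 2 of the 32 genes did not overlap (12.7% of all genes), 3 in TPM (15.1%) and 3 to 7 with a ventricle left out (19.4% to 25.7%), where fewer samples make overlap rarer. In the wider list, genes with an unadjusted p under 0.05 numbered 1, and 0 to 3 with a ventricle left out (2.68% to 9.61% of all genes in those fits).

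Medians with a ventricle left out were −0.53 to 0.62 for T cell genes, 0.31 to 1.17 for NK and cytotoxic genes and −0.41 to 1.13 for B cell genes, the T and B medians being negative only without Cre-positive 3. The filter was applied anew in each fit, so 9 to 12 T cell and 2 to 3 NK and cytotoxic genes entered. Over the same 9 and 2 genes as with all 6 ventricles the medians were −0.53 to 0.49 and 0.31 to 1.17. Log2 fold changes that changed sign in at least 1 of these 6 fits (12 of 19 genes) ranged from −0.53 to 0.25 for *Cd4*, −0.91 to 0.16 for *Cd6*, −0.94 to 0.27 for *Blk*, −0.94 to 1.13 for *Cd79a*, −0.42 to 1.03 for *Ltb*, −0.61 to 0.94 for *Cd2*, −0.080 to 1.04 for *Cd8a*, −0.33 to 1.12 for *Cd79b*, −1.30 to 1.51 for *Ms4a1*, −0.18 to 1.45 for *Pax5*, −0.34 to 1.61 for *Fcmr* and −0.41 to 0.77 for *Cd22*.

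Both genotypes have replicates 1 to 3. Deviations of same-numbered ventricles from their group means correlated at 0.342, 0.058 and −0.032, and Cre-negative 3 correlated best with Cre-positive 2 (0.343), so the numbers were not taken as pairs. The replicate block gave medians of 0.22, 0.79 and 0.20 for T cell, NK and cytotoxic and B cell genes. Depth limits these genes: 13 of 32 had too few counts to be tested.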
